A study of Mus musculus with 24 samples.

Results

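Collagen chain genes encode the alpha chains that wind in threes into every collagen of the extracellular matrix. The genes described here are the 34 rows of the count table whose symbol has the form Col, a number, a, a number, and whose mean count was at least 5 per library. They were 34 of 44 symbols of that form and of 25229 symbols in all. The rule compared no groups, but its mean runs over all libraries, so a gene that is high only after TAC can pass it. That was so for Col9a2, with means of 1.17 and 4.17 counts in Sham/Air and Sham/Benzene, and for Col11a1, with 2.5 and 3.83. Both passed through their TAC libraries, so their place among the members that rose is partly set by the rule. The members just inside the limit were Col7a1, with a mean count of 6.62, and Col25a1, with 6.71, and the symbols just outside were Col26a1, with 4.46, and Col9a3, with 3. Of the 34 members, 33 passed the filter on low counts and were tested, and Col25a1 did not.

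Poly-A RNA of male C57BL/6 mice, taken from the heart's left ventricle with the septum, was sequenced in 4 groups of 6 libraries. Transverse aortic constriction (TAC) is an operation that narrows the aorta and makes the left ventricle pump against raised pressure, while a sham operation serves as the control. Mice recovered for 1 week and then breathed HEPA-filtered air or 50 ppm of benzene, 6 hours a day on 5 days a week for 6 weeks. The groups are Sham/Air (sham surgery, filtered air), Sham/Benzene (sham surgery, benzene), TAC/Air (TAC, filtered air) and TAC/Benzene (TAC, benzene), and all groups share the strain, the sex and the recovery period. The labels name no mouse for a library, so p-values measure the spread between these samples. The crossed design lets the surgery be compared within each exposure, and the exposure within each surgery.

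Collagens differ in how they assemble, and the classes used here follow that. Fibrillar chains (types I, II, III, V, XI, XXIV and XXVII) build the cross-striated fibres that give the heart wall its tensile strength. Type IV chains form the sheet of the basement membrane around cardiomyocytes and vessels, types VIII and X form short-chain networks, and type VI forms beaded microfilaments next to cells. FACIT collagens sit on the surface of fibrils, multiplexins (XV and XVIII) lie at the basement membrane border, and transmembrane collagens are anchored in the cell surface. In a pressure-loaded ventricle, fibroblasts are known as the main source of fibrillar collagen, and the deposition of collagen between muscle cells is called fibrosis.

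Total counts ran from 4170660 to 14632231 per library. The lowest total belonged to Sham/Air replicate 1, which stood apart: its Spearman correlations with other libraries were 0.852 to 0.913, and those among the other 23 were 0.963 to 0.996. It was the lowest of its group in 19 of the 33 tested members, and TAC/Air replicate 4 was also the lowest of its group in 19. The cardiomyocyte markers of the labelled tissue were abundant in all groups, with a summed level of 36649 to 89434 CPM over 7 genes. Of 5 lung genes 2 were tested, Scgb1a1 and Sftpc, which averaged 6.32 and 1.85 CPM in Sham/Air and under 1 CPM in every other group. The untested Sftpb, Sftpa1 and Sftpd averaged at most 0.313 CPM in any group. Sftpb was highest in TAC/Benzene, while Sftpa1 and Sftpd had counts only in Sham/Air. CPM is a count scaled to a common library size, here with TMM scaling factors. Levels below are the lowest, median and highest of the 6 libraries of a group, or the mean ± SD (n = 6). Differences are log2 fold changes ± SE from edgeR's quasi-likelihood test, adjusted by the Benjamini-Hochberg method over 13571 genes and called at an adjusted p under 0.05.

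Promoter sequences of 5 members are shown because their levels moved together or apart in the comparisons below. Col8a1 and Col8a2, the chains of the type VIII network, both rose strongly after TAC. Col6a1 rose and Col6a6 fell, and Col1a2 stands for the abundant fibrillar chains. Each is the 150 bases before the RefSeq start site in the GRCm38.p6 build, written 5′ to 3′ on the strand of the gene. Capitals mark letters that match a searched motif on either strand.
Col8a1, chr16:57754738-57754887, minus strand: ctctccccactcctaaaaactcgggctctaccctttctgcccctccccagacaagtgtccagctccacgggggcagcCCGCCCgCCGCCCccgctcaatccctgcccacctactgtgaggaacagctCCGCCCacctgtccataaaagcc
Col8a2, chr4:126286644-126286793, plus strand: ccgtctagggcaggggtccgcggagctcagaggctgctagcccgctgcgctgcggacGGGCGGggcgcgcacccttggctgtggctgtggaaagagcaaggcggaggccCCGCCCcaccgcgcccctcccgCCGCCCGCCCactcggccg
Col6a1, chr10:76726045-76726194, minus strand: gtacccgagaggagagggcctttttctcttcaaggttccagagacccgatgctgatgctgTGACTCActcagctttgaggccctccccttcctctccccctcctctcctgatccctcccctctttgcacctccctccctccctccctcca
Col6a6, chr9:105828086-105828235, minus strand: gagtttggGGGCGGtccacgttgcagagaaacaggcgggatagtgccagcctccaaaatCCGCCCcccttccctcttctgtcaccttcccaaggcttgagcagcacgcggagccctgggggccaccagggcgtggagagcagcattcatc
Col1a2, chr6:4505468-4505617, plus strand: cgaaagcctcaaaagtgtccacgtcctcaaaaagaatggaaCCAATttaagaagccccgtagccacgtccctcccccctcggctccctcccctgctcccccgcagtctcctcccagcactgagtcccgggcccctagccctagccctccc
Each motif named in this paragraph was searched in every promoter. The only one found in Col8a1, Col8a2 and Col6a6 was the GC box GGGCGG, marked also as its reverse complement. Where 2 copies overlapped the capitals run on. In Col6a1 the capitals mark the AP-1 site TGACTCA, and in Col1a2 the CCAAT box CCAAT. The table held 30 promoters, of 28 of the 34 members. GGGCGG was found in 17 of these 30 promoters and in 28.6% of all 32851, and CCAAT in 6 and in 24.5%. TATAAA was found in 2 member promoters and 7.57% of all promoters, TGACTCA in 1 and 2.84%, and the MCAT element CATTCC in 3 and 7.59%. Col8a1 held the GC box 3 times and Col8a2 4 times, counted with overlaps, and Col6a6 also held it. Whether the motif goes with the change after TAC was not tested. A match describes letters in a window, not a binding site. Neighbouring genes among the members were Col3a1 and Col5a2, Col4a3 and Col4a4, Col4a1 and Col4a2, Col6a1 and Col6a2, and Col4a5 and Col4a6.

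Collagen transcripts took up a larger part of the heart's mRNA after TAC. Over all 34 members, the share of library counts was 0.153% ± 0.0225 in Sham/Air, with a range of 0.1098% to 0.1705%, and 0.170% ± 0.0320 in Sham/Benzene, from 0.145% to 0.220%. It was 0.420% ± 0.0277 in TAC/Air, from 0.368% to 0.453%, and 0.416% ± 0.0115 in TAC/Benzene, and 0.3999% to 0.4310% by library. The mean was 2.75 times that of sham in air and 2.45 times in benzene, and no TAC library reached down to a sham library. The make-up also shifted. Fibrillar chains made up 35.2% ± 0.588 of collagen counts in Sham/Air and 44.0% ± 0.551 in TAC/Air, and 37.2% ± 1.67 and 42.1% ± 0.924 with benzene. Type IV chains went the other way, from 38.6% ± 4.39 to 30.0% ± 1.62 in air and from 38.5% ± 2.61 to 33.7% ± 1.29 in benzene, with Sham/Air replicate 1, at 29.6%, inside the TAC/Air range and Sham/Benzene replicate 1, at 34.1%, inside that of TAC/Benzene. The network chains went from 3.41% to 6.87% in air and from 2.93% to 6.84% in benzene, FACIT chains from 2.35% to 4.06% and from 2.54% to 3.60%, and type VI chains from 12.7% to 9.37% and from 12.2% to 8.48%. These shares are descriptions with no test. In bulk tissue, more cells of a type and more RNA per cell cannot be told apart.

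**Figure D1:**
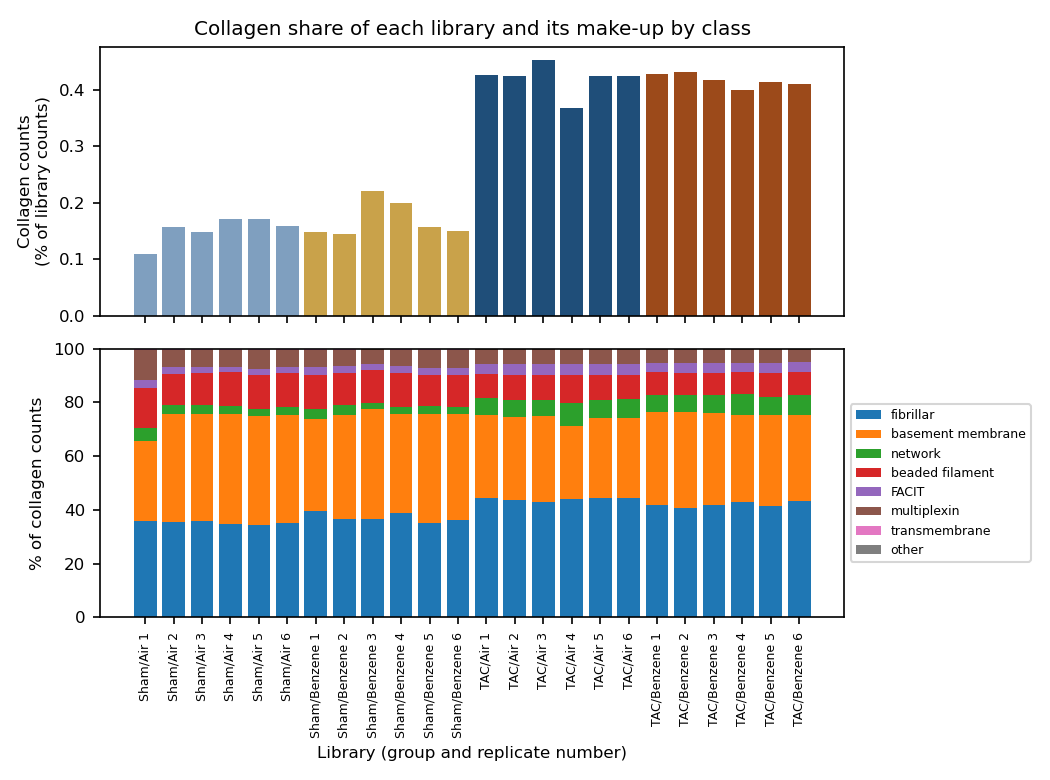
The upper panel plots the share of each library's counts that fell on the 34 collagen chain genes (bars, in percent), and the lower panel divides those counts by collagen class (in percent of collagen counts). All 12 TAC libraries lie between 0.368% and 0.453%, above all 12 sham libraries, and their fibrillar part (blue) is larger, while their type IV part (orange) is smaller in the group means.

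TAC raised most collagen chain genes in filtered air. Of 33 tested members, 25 rose, 1 fell and 7 did not pass, while 16.2% of all tested genes were called, 8.81% higher and 7.35% lower. The median log2 fold change of the members was 1.03, against -0.01 over all genes tested. In 22 members every TAC/Air library lay above every Sham/Air library, which 5.78% of all genes showed. Without Sham/Air replicate 1 the number called was 26, as with it. Under benzene, TAC against sham gave 21 members higher, 1 lower and 11 not passing, with 16.6% of all genes called, 8.67% higher and 7.97% lower. The median was 1.02, and 19 members were higher without overlap, against 7.62% of all genes. The 21 genes higher in benzene were all among the 25 higher in air, and the 4 others were Col5a3, Col27a1, Col6a3 and Col18a1. That split rests on edgeR's test with all 24 libraries: limma-voom also called Col5a3 (adjusted p = 0.0128), Col6a3 (adjusted p = 5.19e-05) and Col18a1 (adjusted p = 0.00113) in benzene. Without Sham/Air replicate 1, which does not enter that contrast but does enter the shared estimate of spread, 24 members were called in benzene.

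**Figure D2:**
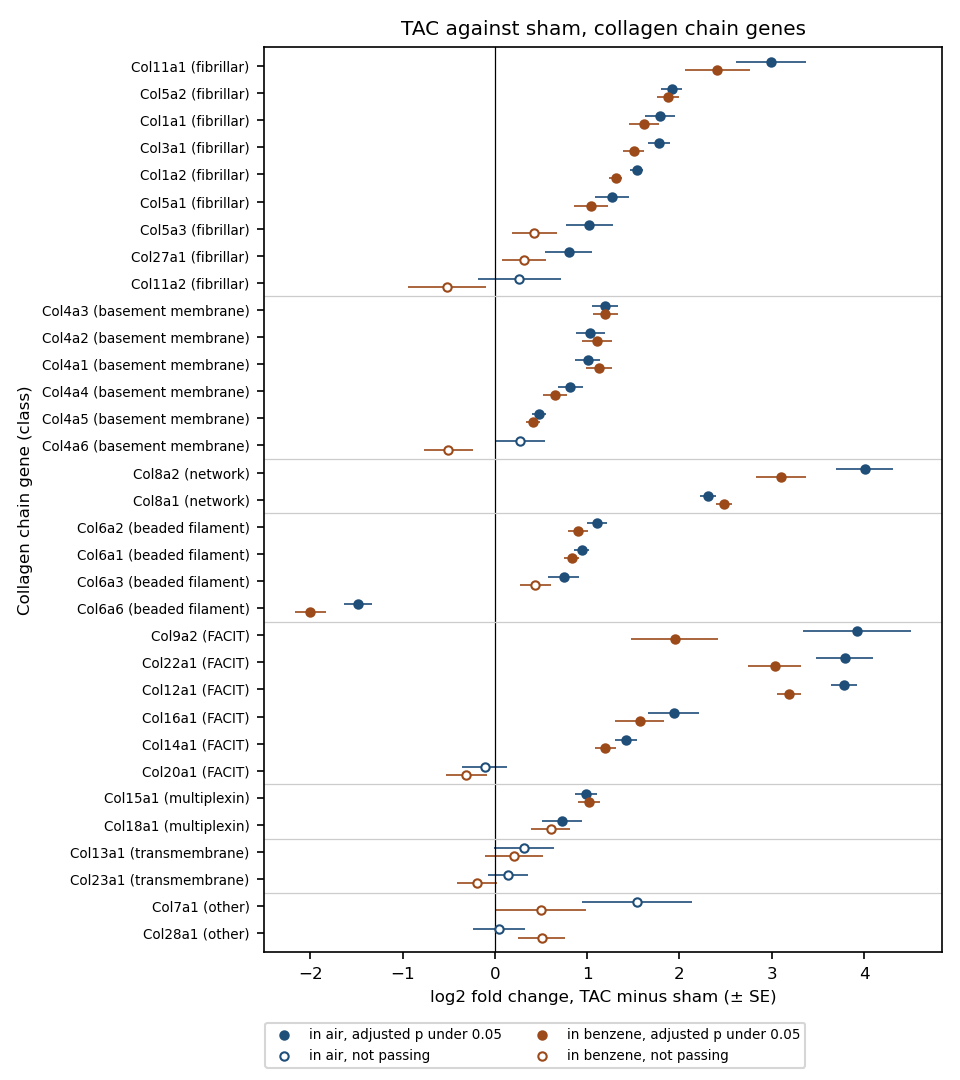
Log2 fold changes of TAC against sham (x axis, ± SE) are plotted for the 33 tested collagen chain genes, grouped by class, in air (blue) and benzene (brown), with filled points at an adjusted p under 0.05. In air Col8a2, Col9a2, Col22a1 and Col12a1 lie farthest to the right, in benzene Col12a1, Col8a2 and Col22a1 do, and Col6a6 is the only filled point left of 0.

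Among fibrillar genes, 8 of 9 rose in air and 6 of 9 in benzene. Col3a1 encodes the only chain of type III collagen, the distensible partner of type I. Its CPM was 161, 219 and 231 (lowest, median, highest) in Sham/Air, 207, 220 and 356 in Sham/Benzene, 663, 730 and 749 in TAC/Air and 693, 701 and 763 in TAC/Benzene. TAC and sham libraries did not overlap, and the log2 fold change was 1.78 ± 0.12 in air (adjusted p = 1.26e-11) and 1.503 ± 0.12 in benzene (adjusted p = 2.39e-10). Col1a2, a chain of type I collagen, the main fibre of scar and heart wall, had 145, 153 and 168 CPM in Sham/Air, 154, 169 and 191 in Sham/Benzene, 418, 453 and 472 in TAC/Air and 403, 422 and 441 in TAC/Benzene. It was tight within groups and rose by 1.54 ± 0.07 in air (adjusted p = 1.19e-14) and 1.31 ± 0.07 in benzene (adjusted p = 1.95e-13). Its partner Col1a1 spread more, from 190 to 343 CPM within TAC/Air, and rose by 1.79 ± 0.16 and 1.62 ± 0.16.

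Type V and XI chains are minor parts of the fibril that start its assembly and limit its width. Within type V the chains did not rise by the same amount. Col5a2 rose by 1.92 ± 0.12 in air and 1.87 ± 0.12 in benzene, and Col5a1 by 1.27 ± 0.19 and 1.04 ± 0.19. The ratio of Col5a1 to Col5a2 counts was 0.940 ± 0.366 in Sham/Air, 1.04 ± 0.194 in Sham/Benzene, 0.576 ± 0.0926 in TAC/Air and 0.578 ± 0.0759 in TAC/Benzene. Sham/Air replicate 1 held the lowest Col5a1, at 16.2 CPM, and the highest Col5a2, at 66.8 CPM, of its group, so its ratio of 0.243 was the only sham ratio below the TAC range. In Sham/Benzene the lowest ratio was 0.816, above the highest TAC ratio of 0.659. Col5a3, the least abundant type V chain, rose by 1.02 ± 0.25 in air (adjusted p = 0.00557) and was at 0.43 ± 0.24 in benzene (adjusted p = 0.286).

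Col11a1, better known from cartilage, was nearly silent in sham hearts, with at most 0.515 CPM in Sham/Air and 0.617 in Sham/Benzene. It reached 1.49, 2.63 and 3.12 CPM (lowest, median, highest) in TAC/Air and 1.10, 1.92 and 2.48 in TAC/Benzene, without overlap. The log2 fold change was 2.996 ± 0.38 in air (adjusted p = 1.98e-06) and 2.41 ± 0.35 in benzene (adjusted p = 1.46e-05), and the sham means rest on 2.5 and 3.83 counts per library. Its partner Col11a2 did not pass, at 0.26 ± 0.45 and -0.52 ± 0.42. It had 0, 1.68 and 2.82 CPM in Sham/Air, 0.960, 2.22 and 5.76 in Sham/Benzene, 0.546, 2.04 and 3.57 in TAC/Air and 0.882, 1.89 and 2.72 in TAC/Benzene, with wide overlap. Col27a1 passed in air at 0.80 ± 0.25 (adjusted p = 0.0281) with overlapping groups, and the call was lost without Sham/Air replicate 2 or TAC/Air replicate 1, 2 or 3 (adjusted p up to 0.0681), and with only the 2 groups compared (adjusted p = 0.178).

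Of the type IV genes, 5 of 6 rose in each exposure. Col4a1 and Col4a2, which form the common basement membrane trimer from a shared promoter region, were the largest part of this class. Col4a1 had 216, 340 and 372 CPM in Sham/Air, 255, 323 and 482 in Sham/Benzene, 481, 668 and 760 in TAC/Air and 708, 751 and 828 in TAC/Benzene. Its log2 fold change was 1.01 ± 0.14 in air (adjusted p = 6.58e-06) and 1.13 ± 0.14 in benzene (adjusted p = 9.61e-07). Col4a2 had 121, 241 and 283 CPM in Sham/Air, 173, 246 and 327 in Sham/Benzene, 377, 485 and 543 in TAC/Air and 465, 542 and 594 in TAC/Benzene, and rose by 1.03 ± 0.16 and 1.11 ± 0.16. The ratio of Col4a1 to Col4a2 counts stayed between 1.37 and 1.44 in the means of the 4 groups. Col4a3 and Col4a4, chains of the trimer best known from the kidney filter, rose by 1.20 ± 0.14 and 0.82 ± 0.13 in air and by 1.20 ± 0.13 and 0.65 ± 0.13 in benzene. Col4a5 rose by less, 0.48 ± 0.08 and 0.41 ± 0.08. Col4a6, the least abundant, did not pass at 0.27 ± 0.27 and -0.50 ± 0.27. Its CPM was 1.14, 2.49 and 3.77 in Sham/Air, 1.24, 2.69 and 4.11 in Sham/Benzene, 2.26, 2.89 and 4.43 in TAC/Air and 1.26, 2.02 and 2.39 in TAC/Benzene.

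Both network genes rose strongly. Type VIII collagen is a short-chain collagen of vessel walls and of the corneal endothelium. Col8a1 had 46.3, 49.8 and 63.4 CPM in Sham/Air, 40.1, 46.4 and 52.9 in Sham/Benzene, 239, 249.4 and 282 in TAC/Air and 244, 257 and 283 in TAC/Benzene. The gap between sham and TAC was far wider than any group, at 2.31 ± 0.09 in air (adjusted p = 2.93e-16) and 2.48 ± 0.09 in benzene (adjusted p = 8.5e-17). Col8a2 had 0.284, 0.958 and 2.40 CPM in Sham/Air, 0.768, 1.60 and 3.70 in Sham/Benzene, 15.3, 20.2 and 26.0 in TAC/Air and 15.6, 18.3 and 20.2 in TAC/Benzene. Its log2 fold change of 4.01 ± 0.31 in air (adjusted p = 2.87e-10) was the highest of any member, and it was 3.10 ± 0.27 in benzene (adjusted p = 3.14e-09). Even so, Col8a2 stayed far below its partner, with 0.0802 ± 0.0227 counts per Col8a1 count in TAC/Air and 0.0697 ± 0.0109 in TAC/Benzene, from 0.0216 ± 0.0163 in Sham/Air and 0.0443 ± 0.0261 in Sham/Benzene.

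**Figure D3:**
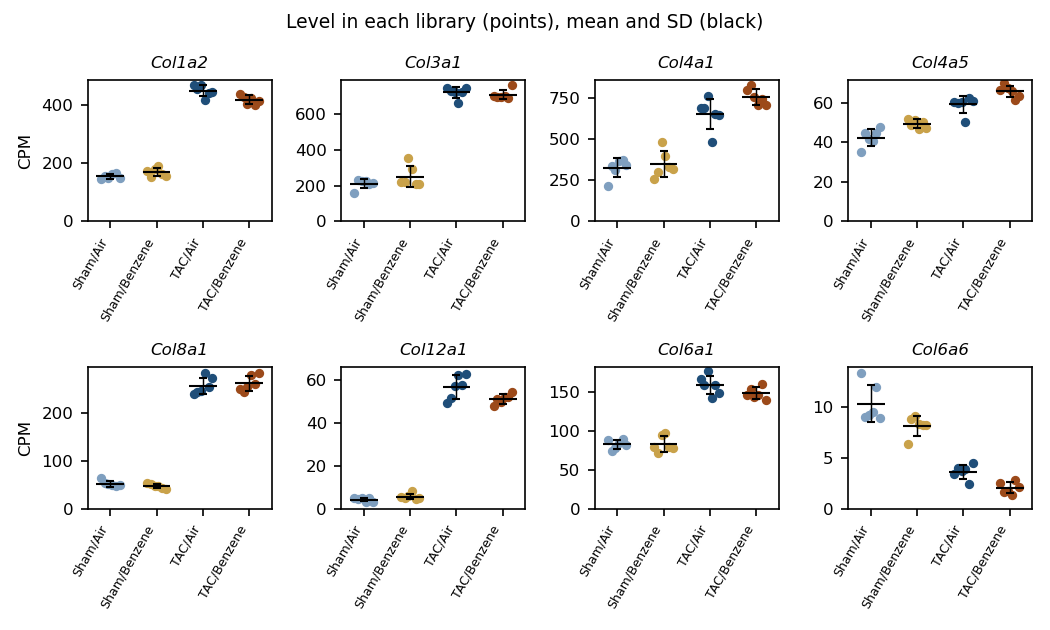
CPM in each library (points) with the group mean and SD (black) is plotted for 8 collagen chain genes, each on a linear axis from 0. TAC libraries lie above the sham libraries of the same exposure for Col1a2, Col3a1, Col4a1, Col8a1, Col12a1 and Col6a1, and below them for Col6a6. For Col4a5 the TAC/Air library at 50.2 CPM reaches into the range of Sham/Benzene.

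The type VI genes split. Col6a1 and Col6a2, neighbouring genes for chains of the main type VI trimer, rose by 0.94 ± 0.08 and 1.11 ± 0.11 in air and by 0.83 ± 0.08 and 0.90 ± 0.11 in benzene. Col6a1 had 74.4, 83.5 and 89.7 CPM in Sham/Air, 71.1, 79.3 and 97.1 in Sham/Benzene, 143, 159 and 177 in TAC/Air and 140, 146 and 160 in TAC/Benzene. Col6a2 had 64.7, 70.4 and 87.0 CPM in Sham/Air, 61.1, 67.9 and 99.0 in Sham/Benzene, 147, 158 and 166 in TAC/Air and 135, 142 and 149 in TAC/Benzene. Both genes separated sham from TAC in each exposure. Col6a3, the longest chain of the trimer, rose by 0.74 ± 0.17 in air (adjusted p = 0.00242) and was at 0.44 ± 0.17 in benzene (adjusted p = 0.0758). In benzene it was called with only the 2 groups compared (adjusted p = 0.0412), and without Sham/Air replicate 1 (adjusted p = 0.0167) or Sham/Benzene replicate 3 (adjusted p = 0.00566).

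Col6a6, a chain that can take the place of Col6a3 in the trimer, was the only member that fell after TAC. It had 8.96, 9.40 and 13.4 CPM in Sham/Air, 6.33, 8.32 and 9.15 in Sham/Benzene, 2.44, 3.80 and 4.45 in TAC/Air and 1.37, 1.94 and 2.78 in TAC/Benzene. No TAC library reached a sham library, as for 3.71% of all genes in air and 6.31% in benzene. It fell by 1.48 on the log2 scale in air (SE 0.16, adjusted p = 9.92e-08) and fell by 2.00 in benzene (SE 0.17, adjusted p = 1.16e-09).

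FACIT genes held the widest span, with 5 of 6 higher in each exposure. Col12a1, whose product links fibrils in tissues under load, had 3.09, 4.49 and 5.11 CPM in Sham/Air, 4.30, 5.06 and 8.02 in Sham/Benzene, 49.3, 57.3 and 62.8 in TAC/Air and 47.6, 51.3 and 54.3 in TAC/Benzene. It rose by 3.79 ± 0.14 in air (adjusted p = 2.31e-16) and 3.19 ± 0.13 in benzene (adjusted p = 1.73e-15). Col14a1, a related fibril-surface collagen that was already abundant in sham hearts, had 17.0, 19.8 and 30.1 CPM in Sham/Air, 17.8, 20.3 and 27.6 in Sham/Benzene, 49.3, 56.4 and 60.5 in TAC/Air and 46.4, 48.6 and 48.7 in TAC/Benzene. It rose by 1.42 ± 0.12 and 1.19 ± 0.11. Col22a1, known from the junction of muscle and tendon, had 0.284, 0.608 and 1.504 CPM in Sham/Air, 0.277, 0.7004 and 2.19 in Sham/Benzene, 8.42, 11.001 and 12.7 in TAC/Air and 6.72, 7.34 and 8.999 in TAC/Benzene. The log2 fold change was 3.79 ± 0.31 in air (adjusted p = 1.05e-09) and 3.03 ± 0.29 in benzene (adjusted p = 1.29e-08), and 3.64 in benzene without Sham/Benzene replicate 4.

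Col9a2, a chain of the cartilage collagen type IX, was near the detection limit in sham hearts. Its CPM was 0, 0.093 and 0.322 in Sham/Air and 0.137, 0.344 and 0.768 in Sham/Benzene, which rest on means of 1.17 and 4.17 counts per library. In TAC/Air it was 1.01, 2.45 and 3.42, above all Sham/Air libraries, and in TAC/Benzene 0.699, 1.15 and 3.12, overlapping Sham/Benzene. The log2 fold change was 3.93 ± 0.59 in air (adjusted p = 2.12e-05), or 4.65 without Sham/Air replicate 5, and 1.95 ± 0.47 in benzene (adjusted p = 0.0044). Of 6 cartilage markers 4 were tested, and they did not move one way. Acan, a cartilage proteoglycan, rose by 1.97 ± 0.50 in air and 2.09 ± 0.43 in benzene, and Sox9, a transcription factor of cartilage, by 1.57 ± 0.14 and 1.07 ± 0.13. Cnmd fell by 1.56 and by 2.28 on the log2 scale, and Hapln1 was at 0.74 ± 0.53 in air and fell by 1.89 in benzene. The untested Matn1 and Matn3 had no count in any sham library and averaged at most 0.191 CPM in a TAC group. The summed level of the list was 7.81 to 9.61 CPM (Sham/Air), 10.1 to 11.6 CPM (Sham/Benzene), 12.6 to 15.7 CPM (TAC/Air) and 13.7 to 15.4 CPM (TAC/Benzene), and its part in the Col9a2 and Col11a1 results was not tested. Col16a1 rose by 1.94 ± 0.27 and 1.57 ± 0.26, with 0.284 CPM in Sham/Air replicate 1. Col20a1 did not pass, at -0.11 ± 0.24 and -0.31 ± 0.22.

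Of the multiplexins, Col15a1, a collagen of capillary and muscle basement membranes, rose in both exposures, by 0.99 ± 0.12 and 1.02 ± 0.12. It had 82.0, 92.3 and 144 CPM in Sham/Air, 72.8, 89.0 and 107 in Sham/Benzene, 169, 200 and 222 in TAC/Air and 173, 182 and 195 in TAC/Benzene. Col18a1, the source of endostatin, passed in air at 0.73 ± 0.22 (adjusted p = 0.0211) and missed the threshold in benzene at 0.61 ± 0.21 (adjusted p = 0.0516). Its CPM was 3.41, 15.7 and 18.0 in Sham/Air, 12.3, 16.8 and 19.4 in Sham/Benzene, 15.2, 22.6 and 29.3 in TAC/Air and 18.9, 25.5 and 29.5 in TAC/Benzene, so the groups overlapped. The call in air was lost without Sham/Air replicate 3 (adjusted p = 0.0601) or TAC/Air replicate 2 (adjusted p = 0.0631), and with only the 2 groups compared (adjusted p = 0.126). In benzene it was called with DESeq2 (adjusted p = 0.0363), with only the 2 groups (adjusted p = 0.00146), with offsets for GC content and length (adjusted p = 0.000405), and without Sham/Air replicate 1 (adjusted p = 0.00307), TAC/Air replicate 4 (adjusted p = 0.0465) or TAC/Benzene replicate 4 (adjusted p = 0.0461).

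The transmembrane and remaining genes were scarce, and the 4 tested did not pass in either exposure, although limma-voom called Col7a1 in air (adjusted p = 0.012) and Col28a1 in benzene (adjusted p = 0.0392). The transmembrane genes Col13a1 and Col23a1 were at 0.31 ± 0.32 and 0.14 ± 0.22 in air and at 0.21 ± 0.31 and -0.20 ± 0.22 in benzene. Their group medians lay between 1.43 and 2.94 CPM, and the untested Col25a1 had medians between 0.434 and 0.890 CPM. Col28a1 was at 0.05 ± 0.28 and 0.51 ± 0.25. Col7a1, the anchoring fibril collagen of skin, was at 1.54 ± 0.60 in air (adjusted p = 0.0829) and 0.50 ± 0.49 in benzene, on at most 9.5 counts per library in the group means. Without Sham/Air replicate 5 it passed in air, at 2.20 (adjusted p = 0.0341).

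Levels were compared between genes per kilobase of transcript. Col4a1 had the highest mean level in sham hearts, 49.1 ± 8.69 CPM per kilobase in Sham/Air, with Col3a1 at 38.0 ± 4.63, Col4a2 at 36.0 ± 9.04 and Col1a2 at 29.1 ± 1.66. Col3a1 and Col4a2 did not differ beyond their spread. In TAC/Air the order was Col3a1 at 130 ± 5.65, Col4a1 at 98.6 ± 14.1, Col1a2 at 84.4 ± 3.78 and Col4a2 at 73.8 ± 9.45, followed by Col8a1 at 50.1 ± 3.39 and Col1a1 at 48.7 ± 9.68, which were within their spread of each other. Col3a1 also led in TAC/Benzene, at 128 ± 4.73, with Col4a1 at 115 ± 7.34. Col8a1 went from rank 9 to rank 5 in both exposures, Col12a1 from 25 to 16 in air and Col8a2 from 29 to 17. Col6a6 went from rank 18 to 28 in air and from 19 to 32 in benzene.

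The other comparison asked what benzene did. In sham hearts no collagen chain gene passed edgeR's test, where 0.0221% of all genes were called. At an unadjusted p under 0.05 there were 5 of 33 members, against 5.73% of all genes, and DESeq2 and limma-voom also called 0. The median difference was 0.16, and no member separated the groups. The smallest unadjusted p-values belonged to Col12a1 at 0.44 ± 0.15 (adjusted p = 0.635), Col4a5 at 0.21 ± 0.08 (adjusted p = 0.698) and Col6a6 at -0.32 ± 0.15 (adjusted p = 0.819). Col4a5 had 34.9, 43.0 and 47.7 CPM in Sham/Air and 46.5, 49.4 and 51.7 in Sham/Benzene. Its ranges touched, and 5 of 6 Sham/Air libraries lay below all Sham/Benzene libraries.

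In TAC hearts benzene went with a lower level of Col6a6 and of no other member that passed, where 0.582% of all genes were called. The difference was -0.84 ± 0.17 (adjusted p = 0.0164), and the TAC/Air range of 2.44 to 4.45 CPM overlapped the TAC/Benzene range of 1.37 to 2.78, on means of 46.7 and 24 counts per library. The call was lost when TAC/Air replicate 6 (adjusted p = 0.0521) or TAC/Benzene replicate 2 (adjusted p = 0.0608), 3 (adjusted p = 0.0564) or 4 (adjusted p = 0.0548) was left out. Averaged over surgery, where 0.192% of all genes were called, Col6a6 was again the only member called, at -0.58 ± 0.11 (adjusted p = 0.0242), and the same 4 libraries decided it, with an adjusted p of up to 0.0603 without them. The sham part of that average was -0.32 ± 0.15 and did not pass.

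Other members did not pass between TAC/Air and TAC/Benzene. Col22a1 was at -0.51 ± 0.22 (adjusted p = 0.655), with only 1 TAC/Benzene library, at 8.999 CPM, above the lowest TAC/Air libraries of 8.42 and 8.96. Col4a6 was at -0.62 ± 0.26 (adjusted p = 0.638). Col14a1 was the only member whose groups did not overlap, as 1.21% of all genes were in that direction. All TAC/Benzene libraries were between 46.4 and 48.7 CPM and all TAC/Air libraries between 49.3 and 60.5, and the difference of -0.22 ± 0.11 did not pass (adjusted p = 0.842). Averaged over surgery, Col4a5 was at 0.18 ± 0.05 (adjusted p = 0.238) and Col20a1 at 0.35 ± 0.16 (adjusted p = 0.673). The share of type IV chains in collagen counts lay between 27.1% and 31.9% in TAC/Air and between 32.2% and 35.5% in TAC/Benzene, without overlap. TAC/Air replicate 4, whose high-GC genes were low, had the 27.1%. The ratio of Col4a5 to Col4a6 counts ran between 13.5 and 27.6 in TAC/Air and between 28.9 and 48.5 in TAC/Benzene, also without overlap. Both of these were noticed in the data and carry no test.

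**Figure D4:**
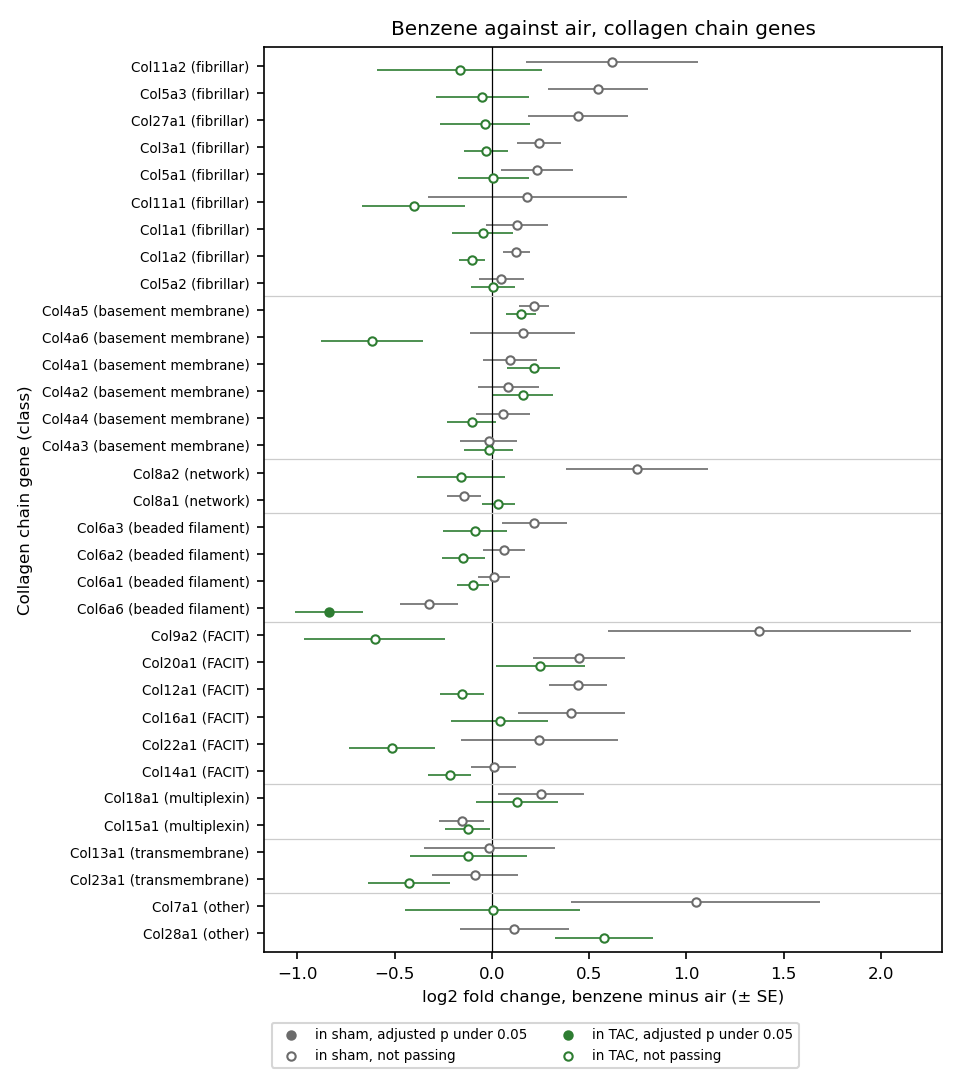
Log2 fold changes of benzene against air (x axis, ± SE) are plotted for the 33 tested collagen chain genes in sham hearts (grey) and TAC hearts (green), with filled points at an adjusted p under 0.05. Col6a6 in TAC hearts is the only filled point, at -0.84.

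The test of the difference between the TAC effects in benzene and in air called no member, where 0.169% of all genes were called. At an unadjusted p under 0.05 there were 5 of 33, against 4.69% of all genes, and DESeq2 and limma-voom called 0. The smallest unadjusted p-values were those of Col12a1 at -0.60 ± 0.19 (adjusted p = 0.483), Col1a2 at -0.23 ± 0.10 (adjusted p = 0.95) and Col9a2 at -1.98 ± 0.86 (adjusted p = 0.961). The signed log2 fold change after TAC was lower in benzene than in air for 28 of 33 members, with a median difference of -0.23, against 0.00 over all genes tested. A lower value is not always a smaller change: Col6a6, at -2.00 in benzene and -1.48 in air, is among the 28. So are Col11a2, Col4a6, Col20a1 and Col23a1, with negative values in benzene that did not pass. These members share libraries, so their common sign is a description. That number was 26 to 29 of 33 over the alternatives with all 33 genes. For the 4 genes that edgeR called higher in air but not in benzene, a split that other fits changed, the difference was -0.60 ± 0.35 for Col5a3, -0.48 ± 0.35 for Col27a1, -0.31 ± 0.24 for Col6a3 and -0.12 ± 0.30 for Col18a1, each with an adjusted p of 1.

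In some libraries, the members deviated from their group mean along their base composition. Their median GC content was 55.9%, against 48.9% over all matched genes. Over the 33 tested members, the Spearman correlation of GC content with a library's deviation from its group mean was -0.70 in Sham/Air replicate 1 and 0.87 in Sham/Air replicate 5. It was -0.71 in TAC/Air replicate 4 and -0.65 in replicate 6, but 0.57 to 0.63 in replicates 1 to 3, and -0.68 in TAC/Benzene replicate 4. It was 0.56 and 0.49 in Sham/Air replicates 4 and 6, and 0.46 and 0.56 in TAC/Benzene replicates 1 and 2. In Sham/Benzene it lay between -0.49 and 0.35. In the remaining libraries of the other groups it lay between -0.31 and 0.26. Each group mean includes the library itself, so 1 library far from it also shifts the deviations of the others. The correlations describe genes within a library, which are not independent. In Sham/Air replicate 1, Col27a1 had no count, Col16a1 0.284 CPM and Col5a3 1.70 CPM, against at least 4.91, 8.30 and 8.78 in the other Sham/Air libraries. With offsets for each library's trend with GC content and length, an alternative chosen after seeing the data, 26 members were called in air and 24 in benzene. The median TAC effect was then 0.90 in air and 0.94 in benzene.

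**Figure D5:**
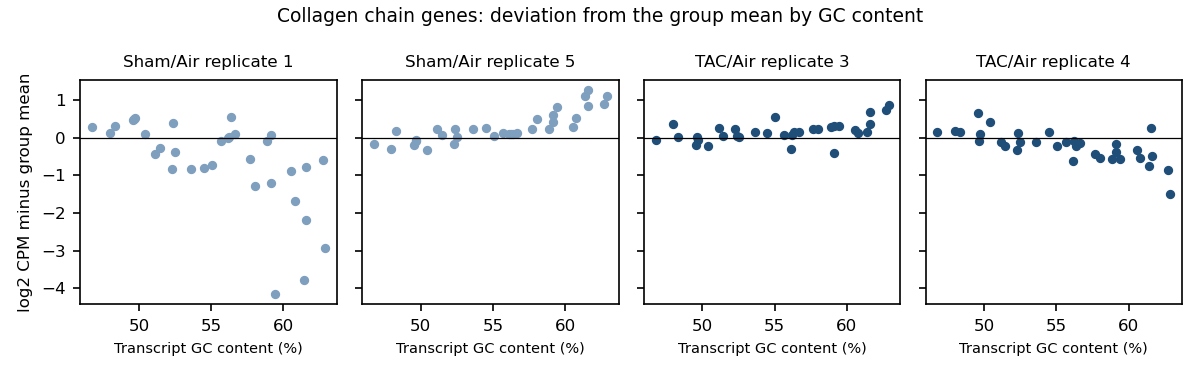
Each point is 1 of the 33 tested collagen chain genes, with the GC content of its transcript (x axis, percent) against its log2 CPM minus the mean of its group (y axis), in 4 libraries. High-GC genes are low in Sham/Air replicate 1 and TAC/Air replicate 4 and high in Sham/Air replicate 5 and TAC/Air replicate 3.

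The genes that make, bind and degrade collagen were counted in lists chosen with earlier results known. Collagen chains are hydroxylated, folded and trimmed before cross-linking, and of 34 tested genes for these steps 17 were higher in air and 18 higher and 1 lower in benzene. The median log2 fold change was 0.49 and 0.45. Lox and Loxl3, which encode cross-linking lysyl oxidases, rose by 2.95 ± 0.20 and 2.62 ± 0.13 in air and by 3.27 ± 0.19 and 2.33 ± 0.13 in benzene. Adamts2, which encodes the enzyme that trims the amino end of procollagen, rose by 1.56 ± 0.11 and 1.42 ± 0.11, and Sparc, whose product binds collagen, by 1.02 ± 0.07 and 1.16 ± 0.07. The gene that fell in benzene was Adamts3, a relative of Adamts2, with -0.61 ± 0.18. Serpinh1, the collagen chaperone, did not pass, at 0.41 ± 0.19 and 0.35 ± 0.19. Of 10 tested receptors, Itga11, an integrin subunit for fibrillar collagen, rose by 1.68 ± 0.14 and 1.57 ± 0.14, and Mrc2, a receptor that takes up collagen, by 1.13 ± 0.20 and 0.92 ± 0.19. The other 8 did not pass in either exposure. The receptors called were thus 20% in each exposure, near the 16.2% of all genes in air and 16.6% in benzene.

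Of 13 tested genes for collagen degradation and its inhibitors, 7 were higher and 2 lower in air, and 9 higher and 1 lower in benzene. Over all genes, 8.81% were higher and 7.35% lower in air, and 8.67% higher and 7.97% lower in benzene. The gelatinase gene Mmp2 rose by 1.54 ± 0.11 and 1.16 ± 0.10, the protease inhibitor gene Timp1 by 3.10 ± 0.27 and 2.49 ± 0.24, Timp2 by 0.71 ± 0.07 and 0.47 ± 0.07, and Ctsk, a collagen-cleaving cathepsin, by 1.53 ± 0.16 and 1.12 ± 0.15. Timp4, an inhibitor abundant in heart, was lower in both, at -0.50 ± 0.11 and -0.37 ± 0.11. Between TAC/Benzene and TAC/Air, where 0.582% of all genes were called, 3 genes of the list passed, named after their values were seen. Mmp8, the neutrophil collagenase, was higher by 3.95 ± 0.55 (adjusted p = 0.000296), at means of 1.79 CPM in TAC/Benzene and 0.109 CPM in TAC/Air. Mmp9 was higher by 1.07 ± 0.24 (adjusted p = 0.0313), and Timp2 was at -0.31 ± 0.07 (adjusted p = 0.0229). For Mmp8 the difference between TAC effects also passed (adjusted p = 0.00742).

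Some cell type markers moved with TAC as well, and their part in the collagen results was not tested. Over all genes, 8.81% were higher and 7.35% lower in air, and 8.67% higher and 7.97% lower in benzene. The lists are short, so a count of 1 or 2 can lie near these shares. Of 6 activated fibroblast markers 4 rose in each exposure, and their summed level was 228 to 369 CPM (Sham/Air), 238 to 323 CPM (Sham/Benzene), 1330 to 1448 CPM (TAC/Air) and 1419 to 1540 CPM (TAC/Benzene). Of 7 markers of fibroblasts in general 3 rose in air and 2 in benzene. Their sums were 3096 to 3691 CPM (Sham/Air), 3003 to 3272 CPM (Sham/Benzene), 3906 to 4575 CPM (TAC/Air) and 3459 to 3787 CPM (TAC/Benzene). Of 7 cardiomyocyte markers 6 fell in air and 5 in benzene. Of 6 pericyte and smooth muscle markers 2 fell in each exposure, Abcc9 and Myh11. Among 4 tested Schwann cell and nerve markers, 2 fell and S100b rose in air, and 3 fell in benzene. The 3 atrial markers fell in benzene and did not pass in air, with sums of 36.4 to 75.1 CPM (Sham/Air), 30.6 to 216 CPM (Sham/Benzene), 34.6 to 55.6 CPM (TAC/Air) and 28.8 to 44.3 CPM (TAC/Benzene). The 2 tested lung genes fell in air and 1 of them in benzene, and of 2 tested adipocyte markers 1 fell in benzene. Of 7 endothelial markers 0 passed edgeR's test in air, with 0 at an unadjusted p under 0.05. In benzene 1 rose, which is 14.3% of the list and near the 16.6% of all genes called. The endothelial sums were 1169 to 1523 CPM in Sham/Air and 1164 to 1232 in TAC/Air.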

How the data were processed

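The authors deposited whole-number read counts per gene symbol, 1 column per library, with no normalization. Tools named in the submitters' processing notes are STAR, FastQC 0.11.9 and DESeq2, with build mm9. How reads were counted, with which annotation and strand setting, is not stated in the sources used here, so reads of overlapping neighbours cannot be assigned with certainty. Groups and replicate numbers come from the sample titles.

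Members and lists were chosen with earlier results of these data known. Members are counted over all 34 genes, and named with per-group values where they are among the 2 highest means of a class, the 6 highest or 3 lowest TAC changes, or called or among the 3 smallest p-values in a benzene comparison. Of each list, up to 4 genes with the smallest p in TAC against sham in air were named. Others named were chosen after their values were seen.

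Counts were filtered in edgeR 4.0.16 (R 4.3.3) by expression in a group (minimum count 10, minimum total 15), leaving 13571 genes, and the genes left out held 0.0747% of counts. TMM scaling and a robust quasi-likelihood fit used all 24 libraries, 1 coefficient per group and 6 contrasts. The SE is the size of the log2 fold change over the square root of F. log2 CPM used a prior count of 2. The procedure was tested on simulated data. Alternatives were DESeq2 1.42.0, limma-voom (limma 3.58.1) with quality weights, RLE size factors, 2 other filters on low counts, a block for the replicate number, a fit of just the 2 groups, each library left out, and GC and length offsets (loess, span 0.5) with and without Sham/Air replicate 1. For GC content and length the longest protein-coding GENCODE transcript (GRCm38) of each symbol was used. Where a symbol had none, the longest transcript of any type was taken. A transcript was found for 96.6% of symbols. That build is not the authors', so coordinates are given only for the RefSeq promoters. Of the 34 members 28 had a promoter entry.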

Additional observations from a re-analysis of the deposited data

Results flagged for a closer look

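A library was set apart where its gap to the nearest other library of its group, divided by the range of the 6, was above Dixon's critical value for 6 samples. This was so in 13 of 136 combinations of member and group (9.56%). For independent samples from a normal distribution, chance gives about 1 in 20. The combinations share libraries, so these rates cannot be set against each other as a test. Sham/Air replicate 1 had 5 of them. It was high for Col14a1, at 30.1 CPM (next 21.9), and Col5a2, at 66.8 (next 46.4), and low for Col3a1, at 161 (next 211), Col4a2, at 121 (next 232), and Col27a1, at 0 (next 4.91). TAC/Air replicate 4 was low for Col3a1, at 663 (next 728), Col4a5, at 50.2 (next 59.96), and Col5a1, at 70.2 (next 103). Sham/Benzene replicate 4 was high for Col22a1, at 2.19 (next 0.796), and Col27a1, at 9.04 (next 6.56). Sham/Benzene replicate 1 was low for Col6a6, at 6.33 CPM (next 8.20). TAC/Benzene replicate 6 was high for Col3a1, at 763 (next 705), and replicate 4 was low for Col7a1, at 0.098 (next 0.679).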

How the results depend on the processing

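Of 50 called member results, 46 kept their call under all 33 alternatives and 0 reversed, the exceptions being Col18a1 and Col27a1 after TAC in air and Col6a6 in both benzene contrasts. Of 148 member results that were not called, 47 changed sign under some alternative. Leaving out each library gave 24 to 27 members called for TAC in air, 22 to 24 for TAC in benzene, 0 to 1 for benzene in TAC and for the average over surgery, and 0 for benzene in sham and for the interaction. Over all genes the same runs gave 1907 to 3169, 1929 to 3667, 1 to 5 (benzene in sham), 52 to 234 (benzene in TAC), 16 to 101 (averaged) and 15 to 49 (interaction), where all libraries gave 2193, 2257, 3, 79, 26 and 23. The highest number came without Sham/Air replicate 1 in each but benzene in sham.

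Members called for benzene in TAC were 2 with limma-voom and with only the 2 groups, Col22a1 being the added gene. Averaged over surgery there were 2 with DESeq2 and with GC and length offsets on 23 libraries, with Col4a5 added, and those offsets called 1 member, Col1a2, in the interaction (adjusted p = 0.037). The cause was not tested. All genes called were, in the order TAC in air, TAC in benzene, benzene in sham, benzene in TAC, averaged and interaction, 3739, 4497, 6, 556, 187 and 93 with limma-voom, 3619, 3717, 14, 263, 145 and 62 with the offsets, and 4382, 4936, 37, 649, 353 and 219 with the offsets on 23 libraries. DESeq2 gave 21, 158, 95 and 56 in the last 4 of these, only the 2 groups gave 1278 for TAC in air, 1 for benzene in sham and 276 for benzene in TAC, and no filter on low counts gave 1 for benzene in sham.

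With the replicate number as a block, 0 members were called for benzene in TAC (Col6a6 adjusted p = 0.0671) and averaged over surgery (adjusted p = 0.111), and Col27a1 was not called for TAC in air (adjusted p = 0.0646). All genes called with the block were 46 for benzene in TAC, 15 averaged and 14 in the interaction. Same-numbered libraries of different groups had deviations that correlated at -0.53 to 0.47 (median -0.049), and 9 of 36 pairs were over 0.1. Only 4 of 24 libraries correlated best with their own number. No pairing by number was seen in these correlations, but they cannot exclude a shared litter, day or batch. Depth limits the scarce members: Col7a1, Col9a2 and Col11a1 had group means of under 5 counts per library in Sham/Air.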
